A study of Homo sapiens with 5 samples.

Results

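Clustered G4 regions are places on chromosomes 1 to 22 where BG4 ChIP-seq peaks recurred close together in C4-2 cells. Pooling the peaks of the 4 replicates and joining any with at least 1 bp in common gave 10145 regions. Regions with a peak of at least 2 replicates were called recurrent, and 6411 were found. A recurrent region was called clustered when the gap to another one was under 10 kb, and isolated otherwise. By this rule 1172 of the 6411 recurrent regions (18.3%) were clustered, in 507 chains called clusters here, and 5239 were isolated. The rule used the positions of the peaks and the number of replicates behind them, so positions, gaps and replicate support are given as descriptions without a test.

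G-quadruplexes (G4s) are stacked structures that form in guanine-rich DNA when guanines pair in planar tetrads. A G4 motif is usually written as several runs of guanines separated by short loops, and a long guanine-rich stretch can hold more than one of them. G4s are known from promoters and from telomeres, and both kinds of place can carry many guanine runs side by side. BG4 is an antibody that binds folded G4s, and in BG4 ChIP-seq the cross-linked fragments that it binds are sequenced.

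All samples were C4-2 cells, an established human prostate cancer line that derives from LNCaP and grows without androgen, and the labels name no treatment. The labels also call the source prostate cancer tissue, but all name the same line. The 4 replicates, numbered 1 to 4, come from chromatin cross-linked with 1% formaldehyde, sonicated and immunoprecipitated with BG4, and the methods call them biological replicates of this 1 line. An input sample was not analysed here, and there was no second condition. The lists held between 4427 (replicate 4) and 8036 (replicate 1) peaks, and the depth of each library is unknown. All peak positions are on GRCh37 (hg19), which the submitters' processing notes name, and peaks on chromosome 1 reached base 249201060.

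A few G4 motifs next to genes with a clustered region are shown first, because the peak lists hold no sequence. The genes come from 1303 windows of 4000 bp that the study listed around gene starts because they held G4 peaks absent from other cell lines, so the windows are no independent sample of genes. Windows of 87 genes overlapped a clustered region and windows of 525 genes overlapped an isolated one, and 1 gene was in both sets. RefSeq promoters of 23 of the 87 genes could be matched by symbol. The motif searched was 4 runs of at least 3 G with loops of 1 to 7 bases, on both strands of the 250 bases before the start. It was found in 11 of the 23 promoters (47.8%), in 106 of 265 promoters with isolated regions alone (40.0%) and in 22.6% of all 27305 promoters in the table. These counts describe letters, and where a motif lay within a peak was not tested because the promoters are from GRCh38.p14 and the peaks from GRCh37.

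The sequences below run 5′ to 3′ on the strand of the gene, with the motif in capitals and 15 bases on each side. Runs of C in capitals mean that the guanine runs lie on the other strand. The first 3 genes had both regions of a pair inside 1 window, the next 3 had a region with a peak in all 4 replicates, and the last 2 are histone genes with the same stretch. These genes were chosen after their values were seen.
ZIC2: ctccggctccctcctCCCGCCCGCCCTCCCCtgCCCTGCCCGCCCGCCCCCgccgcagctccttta
CABLES1: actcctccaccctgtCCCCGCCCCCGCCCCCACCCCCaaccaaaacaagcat
NLGN1: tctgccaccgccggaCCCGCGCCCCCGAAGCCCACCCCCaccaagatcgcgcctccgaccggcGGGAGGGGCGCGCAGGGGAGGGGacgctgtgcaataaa
CKB: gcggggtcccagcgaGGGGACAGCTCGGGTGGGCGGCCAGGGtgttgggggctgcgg
CYB561: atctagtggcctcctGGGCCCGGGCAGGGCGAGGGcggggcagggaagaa
MARVELD1: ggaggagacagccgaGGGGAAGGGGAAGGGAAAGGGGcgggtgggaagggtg
HIST2H3A: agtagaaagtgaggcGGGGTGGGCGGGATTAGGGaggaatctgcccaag
HIST2H3C: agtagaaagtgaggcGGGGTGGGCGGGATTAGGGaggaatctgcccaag

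On GRCh38.p14 these stretches lie at chr13:99981691-99981756 (ZIC2), chr18:23134411-23134462 (CABLES1) and chr3:173395767-173395867 (NLGN1) on the plus strand. The others lie at chr14:103522956-103523012 (CKB, minus strand), chr17:63446784-63446833 (CYB561, minus strand) and chr10:97713612-97713663 (MARVELD1, plus strand). The histone stretches lie at chr1:149852430-149852478 (HIST2H3A, now H3C15, plus strand) and chr1:149841334-149841382 (HIST2H3C, now H3C14, minus strand).

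Most clusters were pairs. Of the 507 clusters, 403 held 2 regions, 73 held 3, 16 held 4, 12 held 5, 2 held 7 and 1 held 9, so that 68.8% of the clustered regions lay in pairs. The clusters had a median span of 5280 bp, from 895 to 36032 bp, and regions covered a median of 23.1% of that span. Together they spanned 3.19 Mb. Clustered regions had a median width of 519.5 bp (quartiles 429 and 682 bp) and isolated regions 522 bp (427 and 668 bp), so the 2 groups were about equally wide.

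The 665 gaps inside clusters had a median of 3182 bp and ran from 51 to 9978 bp. Short gaps were the densest. There were 260 gaps per kb of gap length under 500 bp, 132 from 500 bp to 1 kb, and 47.0 from 5 to 10 kb. Gaps under 1 kb numbered 196, or 29.5% of those inside clusters. Around the limit of 10 kb there were 235 gaps from 5 to 10 kb, 185 from 10 to 15 kb and 185 from 15 to 20 kb.

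**Figure D1:**
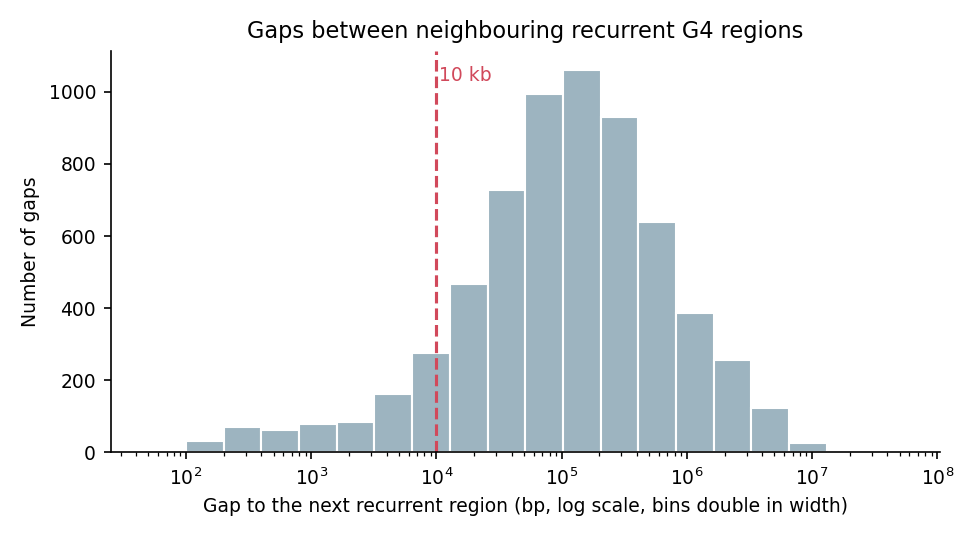
Number of gaps between neighbouring recurrent regions (vertical axis) by gap length in bp (log horizontal axis, bins that double in width), with the limit of 10 kb as a dashed line. The count is 161 between 3200 and 6400 bp, 275 between 6400 and 12800 bp, the bin that holds the limit, and highest at 1061 between 102400 and 204800 bp.

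The 5 pairs just inside the limit had gaps of 9847 to 9978 bp, and the mean fold enrichment of their regions over the 4 replicates, counting 0 where a replicate had no peak, was 1.92 to 8.58. The 5 pairs just outside had gaps of 10032 to 10107 bp and means of 2.72 to 16.0. Peaks of a single replicate also lay near the recurrent regions. Such a single-replicate region lay within 10 kb of 323 clustered regions (27.6%) and of 547 isolated regions (10.4%), so some isolated regions had a neighbour that the replicate rule left out.

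Clusters were unevenly spread over the chromosomes. Chromosome 16 had the highest share of clustered regions, 104 of 359 recurrent ones (29.0%), followed by chromosome 19 (133 of 488, 27.3%), chromosome 11 (97 of 357, 27.2%), chromosome 17 (120 of 462, 26.0%) and chromosome 9 (67 of 310, 21.6%). These 5 chromosomes held 521 clustered regions, which is 44.5% of them, and 30.8% of all recurrent regions. The lowest shares were on chromosome 15 (21 of 211, 9.95%) and chromosome 21 (4 of 68, 5.88%). Per Mb, chromosome 19 led with 2.25 clustered regions, ahead of chromosome 17 with 1.48 and chromosome 16 with 1.15.

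The share of clustered regions was higher where regions were dense. Over the 22 chromosomes, the share and the number of recurrent regions per Mb had a Pearson's r of 0.712 and a Spearman's rho of 0.709. The points share the same 4 libraries, and closer neighbours follow from density alone, so no p is given. Chromosomes of like density could still differ, with density counted over the whole length up to the last peak. Stretches without any peak were not taken out of that length, so the match in density is approximate. Chromosome 11 had 27.2% clustered at 2.66 regions per Mb, against 15.4% at 2.82 per Mb on chromosome 1. Chromosome 16 had 29.0% at 3.98 per Mb against 18.1% at 3.885 on chromosome 22, and chromosome 9 had 21.6% at 2.21 against 13.4% at 2.26 on chromosome 7. Clusters were also frequent near chromosome ends. Within 5 Mb of the start or of the last peak of a chromosome, 30.6% of 1157 recurrent regions were clustered, against 15.6% of the 5254 elsewhere. Of the clustered regions 354 (30.2%) lay there, and of the isolated ones 803 (15.3%). The density of recurrent regions near the ends was not measured, so a share beyond what density gives was not tested.

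**Figure D2:**
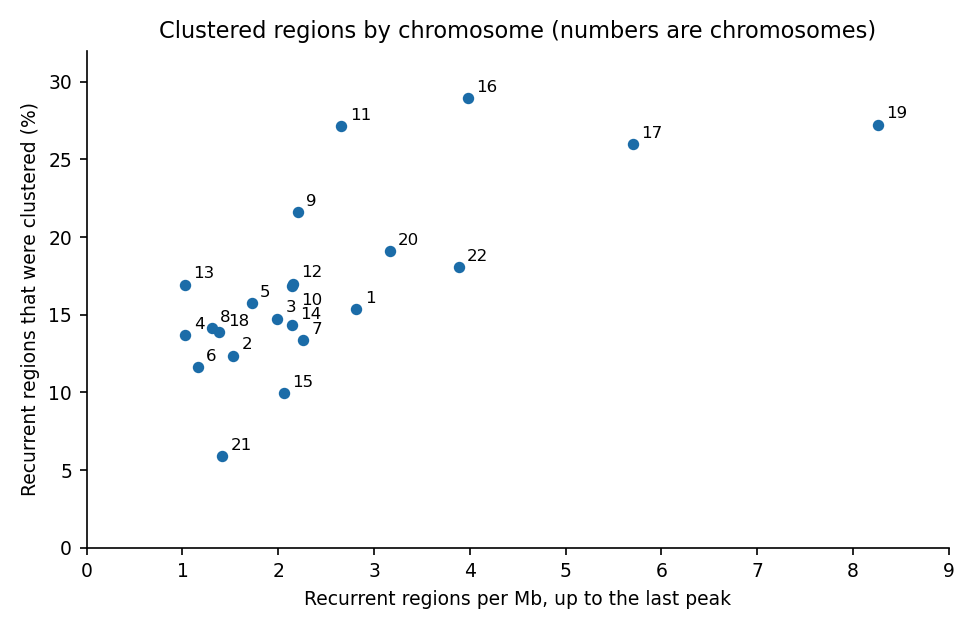
Percent of recurrent regions that were clustered (vertical axis) against recurrent regions per Mb up to the last peak (horizontal axis), 1 point per chromosome. Chromosomes 16, 19, 11 and 17 lie highest at 26.0% to 29.0%, and chromosome 21 lowest at 5.88%.

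The largest cluster was on chromosome 19, at chr19:1240193-1276224, with 9 regions over 36032 bp and gaps of 610 to 7336 bp. Replicates 1 to 4 had a peak in 9, 8, 8 and 6 of its regions, and 5 regions had a peak in all 4. Fold enrichment is the height of a peak over its local background, as the peak caller gave it. Over the peaks present it ranged from 5.79 to 12.6 in replicate 1, 5.63 to 12.3 in replicate 2, 5.72 to 13.1 in replicate 3 and 5.82 to 12.1 in replicate 4. The sixth region, at chr19:1261872-1262951, had values of 12.6, 12.3, 11.9 and 5.82, and the ninth, at chr19:1275201-1276224, had 9.98, 5.63, 13.1 and 12.1. Both were therefore high in 3 replicates and low in 1, and the low replicate was not the same.

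The next cluster on chromosome 19 held 7 regions over 29496 bp, at chr19:2032320-2061815, and its smallest and largest gaps were 807 and 9082 bp. Replicates 1 to 4 had a peak in 6, 6, 6 and 4 of its regions. Its strongest region, at chr19:2059666-2060232, had fold enrichments of 16.6, 9.85, 17.3 and 12.4, and its neighbour 1005 bp further on had 13.6, 7.26, 11.3 and 8.35. In both of these regions replicates 1 and 3 were above replicates 2 and 4. At chr19:2045480-2045836, by contrast, only replicates 2 and 3 had a peak (7.20 and 7.07).

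The other cluster of 7 was of another kind. At chr11:51579355-51591339 it held 7 regions over 11985 bp, and fold enrichments ran only from 2.098 to 4.72 over all peaks, yet 6 of the 7 regions had a peak in all 4 replicates. From the fold enrichment and the p-value of each peak, the pileup of fragments at the summit and the background expected there could be solved, taking MACS2's usual formulas, which the values of all autosomal peaks matched. In replicate 1 the first region had a pileup of 195 fragments over a background of 45.8, and in replicates 2 to 4 it had 154 over 37.1, 159 over 39.1 and 139 over 28.6. The sixth region of the largest cluster had 20 over 0.670 in replicate 1. The chromosome 11 cluster was thus a place of many fragments in all 4 replicates and a modest rise over them.

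**Figure D3:**
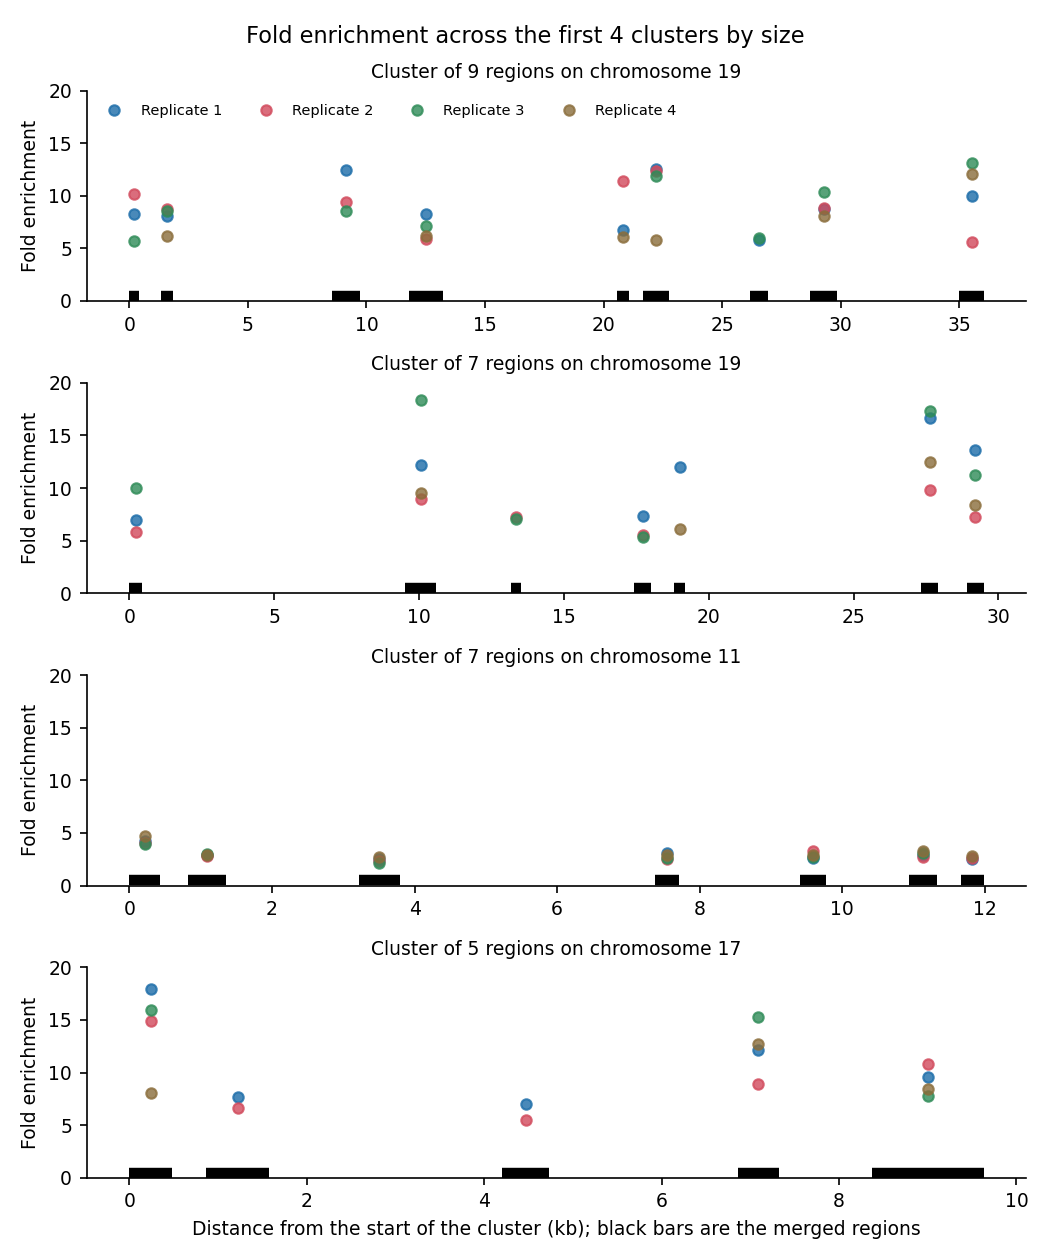
Fold enrichment (vertical axis) of each peak in the first 4 clusters by size, against distance from the cluster's start in kb, with 1 colour per replicate and black bars for the merged regions. On chromosome 11 all values are between 2.098 and 4.72, and on chromosomes 19 and 17 they run from 5.39 to 18.4.

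Among the clusters of 5, the one with the highest mean fold enrichment was at chr17:2295851-2305482. Its first region had 17.97, 14.9, 16.0 and 8.06 and the fourth 12.2, 8.96, 15.3 and 12.7, while the second and the third had peaks only in replicates 1 and 2, from 5.53 to 7.70. The other clusters of 5 that the naming rule chose were at chr19:40926704-40950852, chr17:77805347-77818208, chr11:62358977-62389863 and chr9:140111689-140136199. In these 4 clusters, 2 or 3 of the 5 regions had a peak in all 4 replicates. In each of them, regions seen in all 4 replicates lay beside regions seen in fewer, as at chr11:62389293-62389863, where all 4 replicates had 10.1 to 17.4, while a region 8765 bp away had 6.45 in replicate 1, 4.62 in replicate 2 and no peak in the others.

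A pair of the clusters of 5 had regions in windows named for mitochondrial pseudogenes, which are nuclear copies of mitochondrial DNA. In the cluster at chr1:564522-569649, the first 2 of the 5 regions overlapped windows of MTND1P23 and MTND2P28, which derive from mitochondrial genes for subunits of respiratory complex I. The other 3 lay outside such windows, 1 of them in the window of hsa-mir-6723 and 2 in no listed window. Regions covered 79.6% of its span, and the first had pileups of 260, 224, 236 and 181 fragments over backgrounds of 40.4, 34.3, 36.4 and 26.7. All 5 regions at chr5:99382175-99390579 overlapped a window of MTATP6P2 or MTND5P10, regions covered 76.1% of it, and the highest background among its peaks was 3.19. Reads from mitochondrial DNA and from such copies may be placed in either, and how the authors treated such reads is not given in the sources used here. In all, 24 recurrent regions overlapped windows of mitochondrial-like names, and 19 of them were clustered, in 7 clusters.

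The strongest clusters in which every region had a peak in all 4 replicates were smaller. The strongest was a pair at chr1:228353103-228362591, with fold enrichments of 22.5, 31.6, 25.2 and 15.9 in the first region and 16.3, 11.6, 9.13 and 11.4 in the second. A pair at chr7:1494756-1499787 had 11.8, 7.47, 9.33 and 10.2 in the first and 24.7, 26.2, 28.9 and 21.3 in the second. In both pairs 1 region was higher than the other in every replicate. The others were pairs at chr3:50264668-50273744 and chr16:2178081-2186476 and a cluster of 3 at chr11:560583-576471, with means over their regions and replicates of 17.0, 16.3 and 15.4. All 5 were spread out, with smallest gaps of 3637 to 7770 bp. Of the 507 clusters, 75 (14.8%) had a peak of all 4 replicates in every region, while 42.1% of single clustered regions had such support.

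The densest clusters of 3 or more, by regions per kb, varied in the number of replicates behind each region. Besides the cluster at chr1:564522-569649 they were at chr13:91999598-92001564, chr4:140097434-140099401, chr5:126112357-126114344 and chr6:108879223-108882351, each with 3 regions over at most 3129 bp. On chromosome 13, gaps were 291 and 54 bp, and no region had a peak in more than 3 replicates. On chromosome 4, replicate 2 had no peak in any of the 3 regions, while replicate 1 had 6.74, 6.25 and 11.1. The clusters on chromosomes 5 and 6 each had 1 region with a peak in all 4 replicates, and the one on chromosome 1 had 4. Over the 4 clusters of 3 regions, no peak exceeded a fold enrichment of 11.1.

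Replicate support was close in the clustered and isolated regions. A peak in 2, 3 and 4 replicates was held by 364, 315 and 493 clustered regions (31.1%, 26.9% and 42.1%) and by 1597, 1479 and 2163 isolated ones (30.5%, 28.2% and 41.3%). By replicate, 88.9%, 79.5%, 84.5% and 58.1% of the clustered regions had a peak in replicates 1 to 4, against 91.1%, 78.8%, 83.7% and 57.2% of the isolated ones. Clustered regions were less often covered in replicate 1 and more often in the other 3, by at most 2.18 percentage points. The differences between replicates were far larger than those between the groups.

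Support was also counted within pairs. Of the 806 regions in pairs, 325 (40.3%) had a peak in all 4 replicates, near the 41.3% of isolated regions. Of the 403 pairs, 69 (17.1%) had a peak of all 4 replicates in both regions, 187 in 1 region and 147 in neither. Whether these counts differ from those of regions paired at random was not tested. Both regions of a pair had a peak in 315 pairs (78.2%) in replicate 1, 248 (61.5%) in replicate 2, 295 (73.2%) in replicate 3 and 133 (33.0%) in replicate 4. In replicate 4, the shortest list, 186 pairs had a peak in 1 region alone. Shares of regions with a peak in all 4 replicates went from 40.3% in pairs to 43.4% in clusters of 3, 45.3% in clusters of 4 and 53.0% in larger ones. Without the regions of high background described next, they were 39.8%, 41.7%, 42.9% and 45.9%.

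Fold enrichment was lower in clustered regions. The median over regions with a peak was 7.91, 7.37, 7.62 and 6.78 in replicates 1 to 4, against 8.51, 7.98, 8.13 and 7.31 in isolated regions. The clustered median was lower in 4 of 4 replicates, with a difference of -0.568 ± 0.0502 on the fold scale (SD of the differences, n = 4). The difference was larger than its spread over replicates. Single regions overlapped widely, with quartiles in replicate 1 of 6.27 and 10.8 in clustered and 6.65 and 11.7 in isolated regions. These values come from the replicates that chose the regions, so they are a description.

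To measure both quantities in data that the choice did not use, regions and clusters were defined on 3 replicates and the fourth was measured, in turn. With replicate 1 held out, 676 of 782 clustered regions (86.5%) and 3673 of 4164 isolated ones (88.2%) had a peak in it. For replicates 2, 3 and 4 the shares were 76.1% against 75.2%, 81.2% against 80.3% and 54.8% against 54.5%. The difference was 0.105 ± 1.28 percentage points (SD, n = 4), smaller than its spread, and an exact permutation test (two-sided sign flips over the replicates) gave p = 0.875, which stayed at 0.875 after Benjamini-Hochberg adjustment over the 2 tests. Its direction changed with the settings, and replicate 1 was the only one with a lower share in clustered regions.

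The median fold enrichment in the held-out replicate was 8.37, 7.84, 8.15 and 7.07 in clustered regions and 9.58, 8.44, 8.90 and 7.50 in isolated ones. Clustered regions were lower in 4 of 4 replicates, with a difference of -0.746 ± 0.336 (SD, n = 4), and the exact permutation test gave p = 0.13, adjusted to 0.25. That is the smallest p that 4 replicates allow, so the test could not pass 0.05. Median pileups at the summit were equal in both groups, at 14, 12, 13 and 10 fragments in replicates 1 to 4. Median backgrounds were 0.6144 against 0.5585 in replicate 1 and alike in replicates 2 to 4, at 0.4718, 0.5035 and 0.3672. Over regions with a background under 5, mean pileups were lower in clustered regions in 4 of 4 replicates. They were 15.84, 13.46, 14.12 and 10.72 fragments against 16.53, 13.69, 14.7 and 11.17. Mean backgrounds there were higher, at 0.6615, 0.5525, 0.5816 and 0.4257 against 0.6127, 0.5003, 0.5341 and 0.393. What lay behind the lower fold enrichment was not tested.

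**Figure D4:**
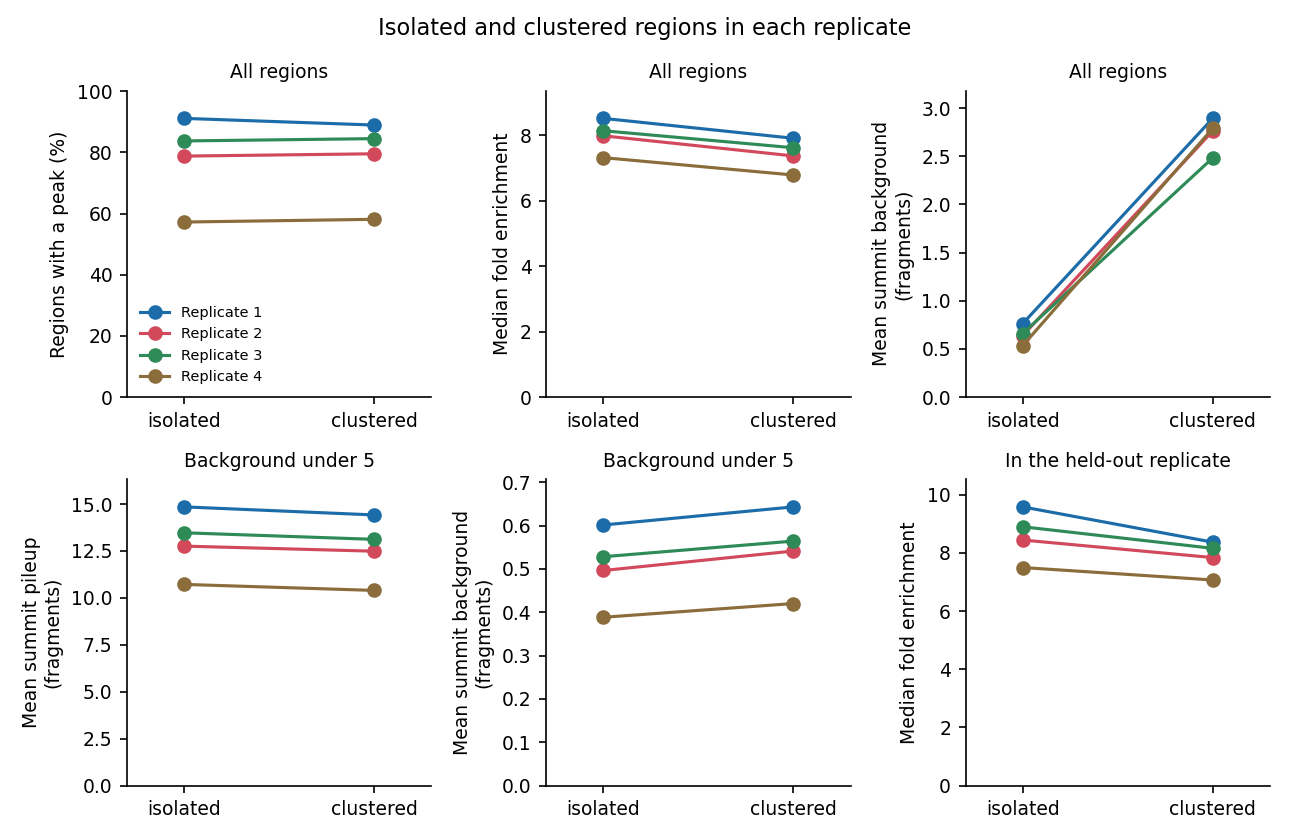
Isolated (left) and clustered (right) regions joined by a line for each of the 4 replicates, with the measured quantity and its unit on the vertical axis of each panel. Median fold enrichment is lower in clustered regions in every replicate, also when held out, and mean background is higher.

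The background at the summits differed between the groups. Over all regions, the mean background was 2.89, 2.76, 2.48 and 2.79 fragments in clustered regions and 0.763, 0.639, 0.660 and 0.534 in isolated ones. The mean pileup was also higher, at 20.7, 19.0, 18.7 and 18.4 fragments against 15.3, 13.3, 13.9 and 11.3. Both rested largely on few places. A background of at least 5 fragments in any replicate, a limit chosen after the data were seen, was found in 85 recurrent regions, and 60 of them (70.6%) were clustered. They lay in 20 clusters, of which 18 held no other regions.

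Without those regions the gap between the groups was narrower. Mean pileup was then 14.4, 12.5, 13.1 and 10.4 fragments in clustered regions and 14.9, 12.8, 13.5 and 10.7 in isolated ones, lower in 4 of 4 replicates with a difference of -0.34 ± 0.0692 (SD, n = 4). Mean background was 0.643, 0.541, 0.564 and 0.420 against 0.601, 0.496, 0.528 and 0.388, higher in 4 of 4 by 0.0386 ± 0.00589. The median fold enrichment was 8.07, 7.48, 7.86 and 6.97 in clustered regions, which differed from isolated ones by -0.397 ± 0.0956. So the median fold enrichment of clustered regions was lower with and without these places. Without them, mean pileup was slightly lower and mean background slightly higher. Median pileups were 12, 10, 11 and 9 fragments against 12, 11, 11 and 9 in isolated regions, equal except in replicate 2. Median backgrounds were 0.5585, 0.4718, 0.5035 and 0.3672 against 0.5027, 0.4686, 0.4984 and 0.3672. Whether neighbouring peaks add to the local background in the caller's estimate was not tested.

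Clustered regions of high background outside mitochondrial-like windows numbered 57, in 19 clusters. They included the 3 regions of chr1:564522-569649 outside such windows, which gave the highest fold enrichments of the 57 in replicates 1, 3 and 4 (8.06, 7.92 and 9.70). Their median fold enrichment was 2.64, 2.81, 2.70 and 3.01 in replicates 1 to 4, and their median background was 48.3, 37.2, 42.9 and 30.4 fragments. All 4 replicates had a peak in 38 of the 57. The 1096 clustered regions of low background outside such windows had medians of 8.07, 7.50, 7.86 and 6.97, and their highest fold enrichments were 38.8, 39.5, 39.3 and 30.0. Median background was 0.559, 0.472, 0.503 and 0.367 in the latter, a distance that follows from the split by background. Background is also the denominator of fold enrichment, so the lower fold enrichment is not independent of the split. Cluster sizes mixed the 2 classes: 22 of the 83 regions in clusters of 5 or more were of high background, against 17 of the 806 in pairs.

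Fold enrichment differed with the distance to the nearest recurrent region. Averaged over replicates, its median was 7.25 ± 0.388 (SD, n = 4) for regions with a neighbour under 1 kb away, 7.29 ± 0.472 from 1 to 5 kb, 7.77 ± 0.584 from 5 to 10 kb, 7.86 ± 0.466 from 10 to 20 kb and 8.12 ± 0.598 from 50 to 100 kb. Beyond 500 kb it was 7.63 ± 0.589, lower again. These SDs include the difference in level between replicates. Within replicates 1 to 4 the median went from 7.60, 7.23, 7.44 and 6.71 under 1 kb to 8.75, 8.13, 8.28 and 7.31 at 50 to 100 kb, higher in 4 of 4. The values were also higher in 4 of 4 replicates at 5 to 10 kb than at 1 to 5 kb. From 5 to 10 kb to 10 to 20 kb they were lower in replicates 1 and 2 and higher in replicates 3 and 4, so the limit of 10 kb marked no step. These classes were chosen after the data were seen, and no test was made.

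**Figure D5:**
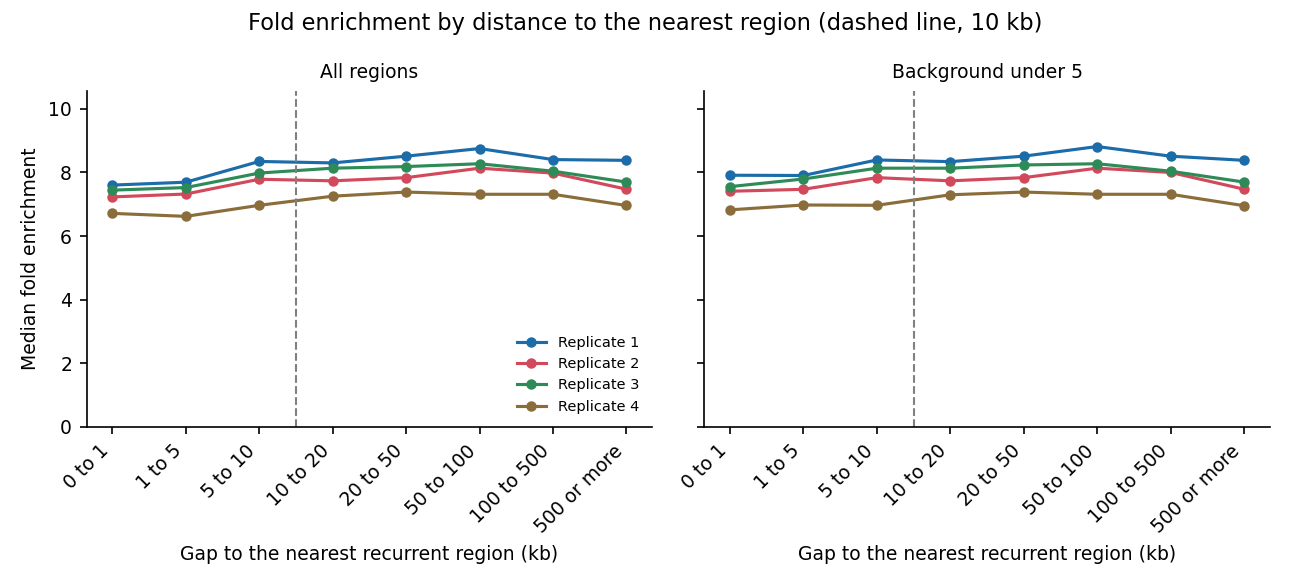
Median fold enrichment in each replicate (vertical axis) by gap to the nearest recurrent region in kb (horizontal axis), for all regions and for those with a background under 5, with 10 kb as a dashed line. In all regions the mean over replicates goes from 7.25 under 1 kb to 8.12 at 50 to 100 kb, and no step stands at the dashed line.

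Neighbouring regions did not match in strength. Over the 623 neighbouring pairs with a gap under 10 kb and a low background in both regions, the mean fold enrichments had a Pearson's r of -0.0377 and a Spearman's rho of -0.0164. Under 1 kb (180 pairs) rho was -0.0963, and from 20 to 100 kb (1880 pairs) it was -0.0111. With the regions of high background, rho over all 665 was 0.0994. The pairs share libraries and some share a region, so these are descriptions. The stronger region of a pair was at least 2 times the weaker in 233 of the 623 (37.4%), and the median ratio was 1.65. From 20 to 100 kb the share was 39.4% and the ratio 1.74, so neighbours under 10 kb were about as unequal as more distant ones. These means count 0 for a replicate without a peak.

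Windows of named genes overlapped 72 clustered regions (6.14%) and 388 isolated ones (7.41%), so clustered regions were not the more frequent in them. The 87 genes lay at 48 clusters. By name, 14 (16.1%) were mitochondrial-like, against 7 (1.33%) of the 525 genes with an isolated region. Transcripts named after clones numbered 28 (32.2%) against 128 (24.4%), and histone genes 7 (8.05%) against 0. Names beginning with MIR, hsa-mir, RNU or SNOR, taken as small RNA genes, numbered 5 (5.75%) against 21 (4%). ZNF names numbered 1 (1.15%), ZNF358, against 11 (2.1%), and HOX names 0 against 1 (0.19%). Zinc finger genes of other names, such as ZBTB16 and ZIC2, were not counted there. The 7 histone genes stand for 3 regions only, since their windows overlap. Many of the clone-named transcripts also shared regions with mitochondrial-like windows, as at chr5:99382175-99390579. These gene counts therefore repeat some places.

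The histone genes HIST2H3A and HIST2H3C encode histone H3 and lie in neighbouring copies of the same genes. The region at chr1:149813243-149813719 lay in the window of HIST2H3C, with 4.15 in replicate 1 and 5.63 in replicate 2, and the one at chr1:149823207-149823661 lay in that of HIST2H3A, with 6.28 and 4.88. Neither had a peak in replicates 3 and 4. Their gap was 9487 bp. Since the stretches printed above are the same, reads from these copies may be shared between them, and the split between the regions is uncertain.

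Some windows of 4000 bp held both regions of a pair. In the window of ZBTB16, a zinc finger transcription factor, the region at chr11:113930053-113930486 had 13.2, 9.39, 10.3 and 11.6, and the one 1614 bp away had 5.14 and 5.04 in replicates 2 and 3 only. In that of WNT7B, a secreted Wnt ligand, the first region had 11.9, 8.24 and 7.31 in replicates 1, 3 and 4, and the second had 5.92 and 6.04 in replicates 1 and 4. In that of SHISA5 the first had 7.57, 6.79, 8.55 and 6.18, and the second had 8.67 and 8.13 in replicates 1 and 3. In each of these windows 1 region had more replicates than its neighbour.

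The pairs of ZIC2, CABLES1 and NLGN1, whose motifs are printed above, had fewer replicates. ZIC2 encodes a zinc finger factor of development, and its regions, 119 bp apart, had 8.51 and 6.01 in replicates 1 and 3, and 6.74, 5.44 and 5.43 in replicates 1 to 3. CABLES1 encodes a binding partner of cyclin-dependent kinases, and each of its regions, 149 bp apart, had peaks in 2 replicates. NLGN1 encodes a synaptic adhesion protein, and its regions had peaks in 2 and 3 replicates. Replicate 4 had no peak in any of these 6 regions.

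In the windows of CKB, CYB561 and MARVELD1, 1 region of a cluster had a peak in all 4 replicates. CKB encodes the brain form of creatine kinase, and its region at chr14:103987214-103987720 had 4.79, 5.94, 5.63 and 4.87. That of CYB561, a cytochrome b561, at chr17:61523480-61524344, had 6.55, 6.11, 7.49 and 5.62, and was 9959 bp from its neighbour, just inside the limit. That of MARVELD1 at chr10:99473841-99474601 had 4.84, 6.14, 6.58 and 5.85. All 12 of these values were below the median of clustered regions in their replicate, but the 3 genes were chosen after their values were seen. In other windows, regions with a peak in all 4 replicates lay on either side of these medians. That of ZBTB16 had 13.2, 9.395, 10.32 and 11.63, and 1 of MTRNR2L8 had 6.734, 6.038, 5.89 and 5.296.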

How the data were processed

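BG4 ChIP-seq was analysed in 4 replicates of C4-2 cells. Per the labels, the authors used bcl2fastq 1.8.4, Bowtie2 2.2.5, SAMtools 1.11 and MACS2 2.1.1 on hg19. The paper's text names hg38, but the last peak on chromosome 1 ends at 249201060, which lies beyond hg38. Options, duplicate and multi-mapped reads, and use of the input are not given in the sources used here. The deposited fold enrichment is the authors' ratio of summit pileup to local background. The deposited p-values and q-values are the authors' −log10 values. The deposited score was not used.

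Peaks were merged at 1 bp, and regions on chromosomes 1 to 22 with a peak of at least 2 replicates were chained at gaps under 10 kb. A replicate's value in a region is that of its peak with the highest fold enrichment. The whole pileup k (1 to 3000 tried) and background were solved from fold enrichment = (k + 1)/(background + 1) and the Poisson tail. This is MACS2's formula as known from outside these sources, used because it matched all 23823 autosomal peaks within 0.001 in −log10 p. Another whole number also matched for 257 peaks (1.08%), and the closest was kept. Pileups are local and give no library depth.

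Tests were exact sign-flip permutation tests over held-out replicates, two-sided, adjusted by Benjamini-Hochberg over 2 tests. Replicate tests measure only the spread between these 4 samples. Merging, chaining and solving were tested on simulated data and recovered 100% of 3000 simulated pileups and 100% of the simulated clusters. The simulated gaps left out lengths close to 10 kb, so chaining at the limit itself was not tested. The simulated backgrounds did not reach the highest in the data. The list and rules were chosen with earlier results of these data known. Clusters with coordinates are the 10 with the most regions (ties by mean fold enrichment), the 5 strongest with every region in all 4 replicates, the 5 densest of 3 or more regions, and the 5 pairs on each side of 10 kb. The rule names genes whose window meets such a cluster, and other genes were chosen after their values were seen. The limits of 5 fragments, 5 Mb and the mitochondrial-like names were chosen after the data were seen. No GRCh37 genome was used here, so genes come from the study's listed windows, and promoters from RefSeq GRCh38.p14 by symbol or synonym. Alternatives changed the gap, the replicates needed, the overlap, the q-value, the number of peaks, the chromosomes, the measure and the replicates used. Statistics were computed with scipy 1.17.1 and pandas 2.3.3 (Python 3.11.15, numpy 2.4.6), and plots were drawn with matplotlib 3.10.9.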

Additional observations from a re-analysis of the deposited data

Results flagged for a closer look

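In replicate 1 the share of regions with a peak was lower in clustered than in isolated regions, by -2.18 percentage points, while replicates 2 to 4 gave 0.748 to 0.881, and replicate 1 stood apart from the others by 0.956 of the whole range. In the same replicate the median background was higher in clustered regions by 0.101 fragments, against 1.56e-06 to 0.00503 in the others, a gap of 0.95 of the range. Both exceeded Dixon's critical value for 4 samples, which served here only to pick out values. Both measures come from the replicates that chose the regions, so these flags are descriptions and not tests. With each replicate held out, the difference in the share with a peak set replicate 1 apart by 0.773 of the range. That was below the critical value. The flagged measures were 2 of 21 examined, and chance flags about 1 in 20. The measures share libraries, and the cause was not tested.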

How the results depend on the processing

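The number of clustered regions, 1172 in 507 clusters, followed the rule. A gap under 5 kb gave 780 regions (12.2% of the recurrent ones), and one under 20 kb gave 27.2%. Regions with at least 3 replicates gave 611 in 272 clusters (13.7%), those with all 4 gave 253 in 114 (9.53%), and the 3000 strongest peaks per replicate gave 261 in 122 (8.49%). A −log10 q of at least 4 gave 15.8%. Taking out the regions of a background of 5 or more left 1112 in 489 clusters (17.6%). Leaving out 1 replicate gave 15.8% to 17.35%.

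The held-out difference in detection had no stable direction. It was -0.599 percentage points with a gap under 5 kb, -4.82 with the 3000 strongest peaks, -0.512 without regions of a background of 5 or more (taken out after chaining), -0.191 without mitochondrial-like windows (taken out before chaining) and -1.53 to 2.32 with 1 replicate left out. The held-out difference in fold enrichment stayed below 0 in the alternatives that used fold enrichment or q, from -1.6 (at least 3 replicates) to -0.407 (the 3000 strongest peaks). It was -1.11, -1.24, -1.43 and -0.913 without replicate 1, 2, 3 and 4, so leaving out replicate 2 or 3 moved it by over 1.5 times. The mean summit pileup was higher in clustered regions instead, by 7.61 fragments, but the difference was -0.484 over regions with a background under 5.

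In the replicates that chose the regions, the difference in median fold enrichment was -0.691 and -0.427 with gaps under 5 and 20 kb, -0.842 with at least 3 replicates, -0.502 with the 3000 strongest peaks, -0.397 without high background, -0.71 as a mean, and -0.765 to -0.517 with 1 replicate left out. It was -0.481 in −log10 q. In mean pileup it was 5.76, and -0.34 with a background under 5. Pileup settings, both exclusions and values within chromosomes were added after seeing the data. No paired analysis was possible because the files hold 1 group of replicates, so no sample groups share numbers, while clustered and isolated regions were compared within each replicate throughout. Depth per library is unknown, so a region without a peak in replicate 4 is not shown to lack signal there.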
